A study of Sus scrofa with 6 samples.

Results

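TNF and other cytokine messages of blood leukocytes were read in RNA from peripheral blood mononuclear cells (PBMCs, the lymphocytes and monocytes separated from blood). Members were the rows whose symbol matched a list of 10 cytokines, namely TNF, IL1B, IL1A, IL6, IL15, IL18, LTB, TGFB1, IFNG and IL16. Of these, 7 were found among the 11564 genes of the deposited table (TNF, LTB, IL1A, IL15, IL18, TGFB1 and IFNG), and all 7 passed the filter on low values. IL1B, IL6 and IL16 had no row under those symbols. The members were chosen by their FPKM values in these libraries, with the differences between the labels already known, TNF among them, so their values by label are a description.

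Cytokines are secreted or membrane-bound proteins through which leukocytes signal to each other. TNF, IL1A, IL1B and IL18 are products mainly of monocytes and macrophages that start inflammation, IL15 sustains NK cells and memory T cells, and IFNG is made by activated T and NK cells. LTB anchors lymphotoxin on the surface of lymphocytes, where it helps to shape lymphoid tissue, TGFB1 restrains T cell responses and favours regulatory T cells, and IL16 attracts CD4+ cells.

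Each library came from a different Yorkshire pig of 6 months, and of these 6 animals 3 carried the label wild type (WT) and 3 the label leptin-overexpressing. Per the study's text, pig leptin with a leptin promoter was put into fetal fibroblasts, while its cloning protocol names the vector pIRES2-AcGFP1 and no promoter; neomycin-selected cells were used for somatic cell nuclear transfer, and the controls were nontransgenic pigs. Whether the controls had also been cloned is not given in the sources used here. Values are FPKM, the fragments assigned to a gene scaled by transcript length and library total, so levels of different genes can be set side by side.

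LEP, the gene carried by the transgene, was at 50.0 FPKM in the library labelled WT replicate 1, listed at 0 in WT replicate 2 and at 0.118 FPKM in WT replicate 3. In the libraries labelled leptin-overexpressing it was listed at 0 in replicate 1 and was at 18.3 FPKM in replicate 2 and 39.3 FPKM in replicate 3. LEP in both replicate 1 libraries therefore goes against their labels. The labels were kept, each direction below is that of the labels, and the members' differences are also given without these 2 libraries. Defining markers of the cells in a PBMC preparation were present in every library, with CD14 of monocytes at 99.9 to 291.4 FPKM, CD3E of T cells at 213.0 to 372.2 FPKM and MS4A1 of B cells at 49.3 to 127.3 FPKM. HBB of red blood cells was also read, at 17.7 to 211.4 FPKM, and S100A8 of neutrophils and monocytes at 66.5 to 698.9 FPKM. In RNA from mixed cells, fewer cells of a type and less RNA per cell cannot be told apart.

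The level of the 7 messages covered a wide range, from TGFB1 at a mean of 192.1 FPKM over the 6 libraries to IFNG at 3.49 FPKM. IL18 followed TGFB1 with a mean of 133.1 FPKM and LTB with 132.3 FPKM, ahead of TNF with 33.4 FPKM, IL15 with 10.99 FPKM and IL1A with 4.89 FPKM. TGFB1 was above IL18 in 6 of 6 libraries, but their ranges overlapped and the smallest ratio was 1.002. IL18 and LTB could not be ordered, since IL18 was the higher in 3 libraries and LTB in the other 3. LTB was above TNF in all 6 libraries with no overlap between their ranges, by 2.32 to 11.9 times. TNF was above IL15 in 5 of 6 libraries, the exception being WT replicate 2. IL15 was above IL1A in 6 of 6 libraries with no overlap, whereas IL1A was above IFNG in 4 of 6.

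**Figure D1:**
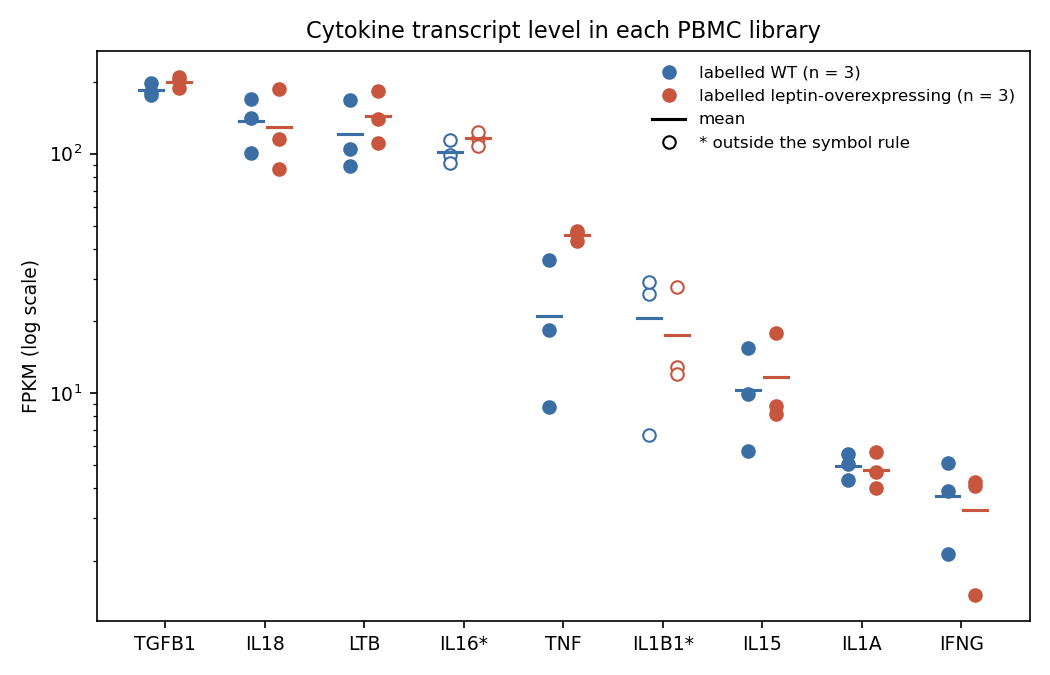
FPKM of each cytokine in each library on a log axis, with 3 libraries per label as points and their mean as a line; open points are 2 rows outside the symbol rule. TGFB1, IL18 and LTB sit highest, IL1A and IFNG lowest, and TNF is the member whose WT points spread widest while its leptin-overexpressing points nearly coincide.

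TNF, the trimeric cytokine that drives NF-kB signalling through the receptors TNFRSF1A and TNFRSF1B, was higher in the libraries labelled leptin-overexpressing. Its row is ENSSSCG00000001404, on chromosome 7 from 27549595 to 27552338 by the coordinates that the deposited table gives without a genome build. TNF was at 18.4, 8.76 and 35.9 FPKM in WT replicates 1, 2 and 3, and at 43.3, 47.5 and 46.6 FPKM in leptin-overexpressing replicates 1, 2 and 3. Every library labelled leptin-overexpressing was thus above every library labelled WT, although WT replicate 3 came near. The means were 21.0 ± 13.8 FPKM (SD, n = 3) and 45.8 ± 2.20 FPKM (SD, n = 3), a ratio of 2.18. As a difference of log2(FPKM + 1), a scale that shrinks changes in scarce transcripts, this was 1.29 (standard error 0.41). Spread was unequal between the labels. The coefficient of variation was 65.4% in the libraries labelled WT, where 98.5% of the 10735 genes tested had a smaller SD on the log2 scale. It was 4.80% in those labelled leptin-overexpressing, where 9.63% of the genes tested had a smaller SD.

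The size of the TNF difference was set largely by which WT library was included. Without WT replicate 2 it was 0.81 on the log2 scale, and without WT replicate 3 it was 1.77. Leaving out both replicate 1 libraries gave 1.34 (standard error 0.60), and leaving out each library labelled leptin-overexpressing in turn gave 1.33, 1.27 and 1.28. Scaling the libraries by median of ratios gave 1.23 and scaling them to equal FPKM totals gave 1.17. Monocyte markers, a list of 12 symbols of which 9 were found, overlapped between the labels in their summed level, and none of those found was at 0. The sums were 995, 625 and 438 FPKM in WT replicates 1 to 3 and 596, 994 and 689 FPKM in leptin-overexpressing replicates 1 to 3. Under the WT label TNF was highest where the monocyte sum was lowest (replicate 3), and under the leptin-overexpressing label TNF and the monocyte sum had the same order. The part of monocyte content in the TNF values was not tested.

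**Figure D2:**
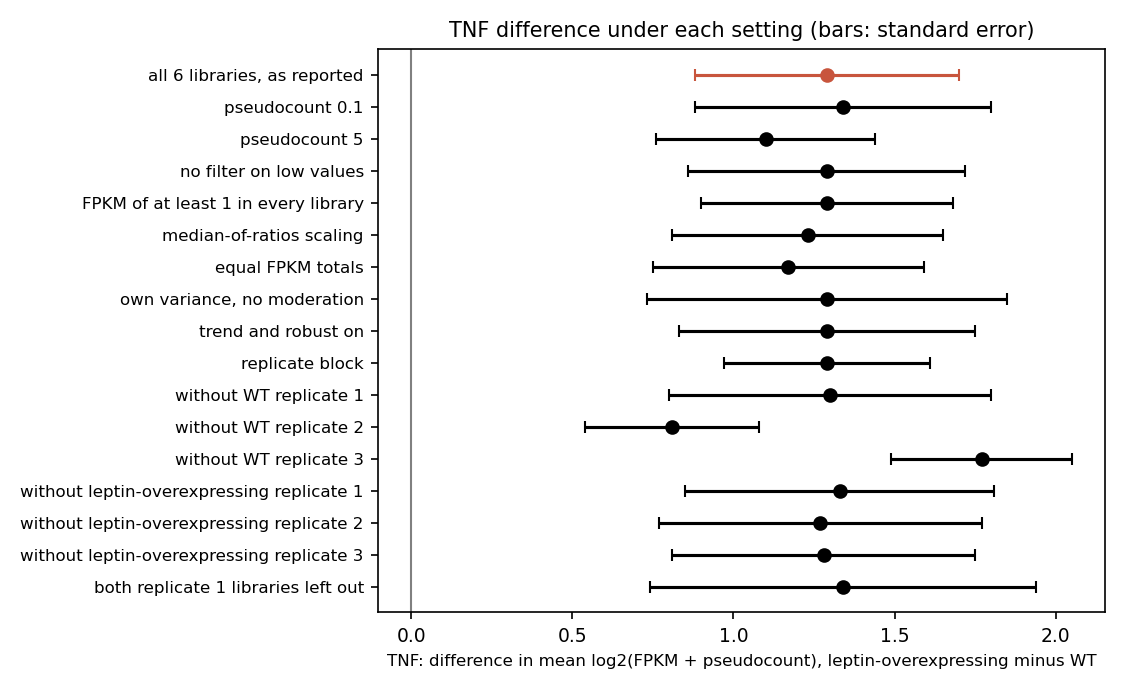
Difference of TNF between the labels on the log2 scale, leptin-overexpressing minus WT, with its standard error, as reported (top) and under each of 16 other settings. All lie above 0, from 0.81 without WT replicate 2 to 1.77 without WT replicate 3.

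TNF lies between 2 other genes of its superfamily, LTB (ENSSSCG00000001405, chromosome 7 from 27545250 to 27547161) and LTA (chromosome 7 from 27553710 to 27555858), at a distance of 2433 bp from the first and 1371 bp from the second. LTB was at 88.6, 104.6 and 168.3 FPKM in WT replicates 1 to 3 and at 182.1, 110.4 and 139.5 FPKM in leptin-overexpressing replicates 1 to 3. The labels overlapped for LTB, with WT replicate 3 above leptin-overexpressing replicates 2 and 3. LTB averaged 120.5 ± 42.2 FPKM (SD, n = 3) and 144.0 ± 36.1 FPKM (SD, n = 3), a log2 difference of 0.28 (standard error 0.28). It was 0.55 without WT replicate 3, 0.09 without WT replicate 1 and -0.10 without both replicate 1 libraries. LTA, which encodes lymphotoxin alpha, was scarce, at 1.46, 2.77 and 3.43 FPKM under the WT label and 2.75, 2.21 and 3.10 FPKM under the leptin-overexpressing label. Its log2 difference was 0.09, with the labels overlapping. The balance within the cluster therefore varied by library. LTB exceeded TNF 11.9 times in WT replicate 2, 4.81 and 4.69 times in WT replicates 1 and 3, and 2.32 to 4.20 times in the leptin-overexpressing libraries.

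**Figure D3:**
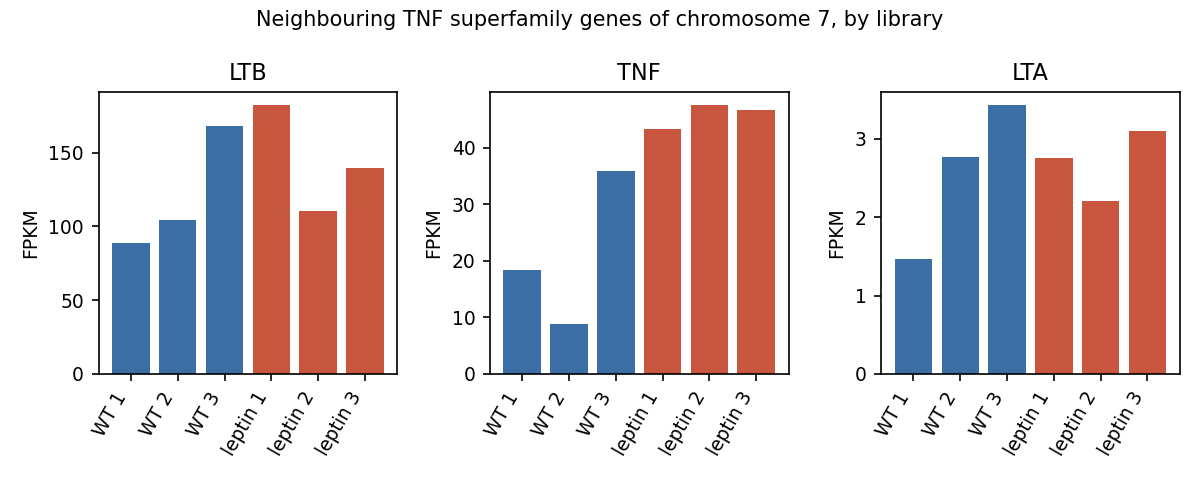
FPKM of the neighbouring genes LTB, TNF and LTA of chromosome 7 in each library, 1 bar per library on axes that start at 0. TNF separates the labels, while LTB and LTA do not.

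Both members of the interleukin 1 family that had a symbol on the list, IL18 and IL1A, overlapped between the labels. IL18 (ENSSSCG00000015037, chromosome 9 from 44692094 to 44713420), a monocyte product that induces IFNG in T and NK cells after cleavage by caspase 1, was at 140.3, 168.9 and 100.9 FPKM in WT replicates 1 to 3. In leptin-overexpressing replicates 1 to 3 it was at 114.8, 187.0 and 86.6 FPKM. Its highest and its lowest value both came from libraries labelled leptin-overexpressing, and the log2 difference was -0.12 (standard error 0.30). Leaving out 1 library moved it from -0.42, without leptin-overexpressing replicate 2, to 0.13, without leptin-overexpressing replicate 3. IL1A (ENSSSCG00000008090, chromosome 3 from 45453544 to 45466239), an alarmin stored in cells, was low and even. It was at 5.55, 5.06 and 4.33 FPKM under the WT label and at 4.03, 5.69 and 4.66 FPKM under the leptin-overexpressing label, with a log2 difference of -0.05 (standard error 0.17). Leaving out 1 library moved the IL1A difference between -0.16, without leptin-overexpressing replicate 2, and 0.05, without leptin-overexpressing replicate 1.

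Besides the members, the table has a row with the symbol IL1B1 (ENSSSCG00000008088, chromosome 3 from 45319295 to 45326307), which lies on the same chromosome as IL1A and was looked up after the values were seen. Pigs carry more than one copy of the IL1B gene, and reads shared between copies could be split by the authors' quantification, so its level is uncertain. IL1B1 was at 26.0, 29.1 and 6.66 FPKM in WT replicates 1 to 3 and at 12.8, 27.8 and 11.97 FPKM in leptin-overexpressing replicates 1 to 3. Thus IL1B1 was high in WT replicates 1 and 2 and in leptin-overexpressing replicate 2, the same 3 libraries in which IL18 was highest. The labels overlapped, and the log2 difference was -0.09 (standard error 0.53).

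IL15 and IFNG, cytokines that act on NK and T cells, varied more between libraries of one label than between the means of the labels. IL15 (ENSSSCG00000009051, chromosome 8 from 90961966 to 91021377) was at 9.93, 15.4 and 5.72 FPKM under the WT label and at 8.15, 8.83 and 17.9 FPKM under the leptin-overexpressing label, a log2 difference of 0.17 (standard error 0.38). WT replicate 2 and leptin-overexpressing replicate 3 were high, and the remaining libraries were low. The sign of the IL15 difference turned, to -0.17, without WT replicate 3 and without leptin-overexpressing replicate 3, and the difference was 0.48 without WT replicate 2. IFNG (ENSSSCG00000000481, chromosome 5 from 35374322 to 35379577) was the scarcest member, at 3.89, 2.13 and 5.13 FPKM in WT replicates 1 to 3 and at 4.08, 1.44 and 4.24 FPKM in leptin-overexpressing replicates 1 to 3. Its log2 difference was -0.18 (standard error 0.35), and leaving out 1 library moved it from -0.45, without WT replicate 2, to 0.18, without leptin-overexpressing replicate 2, with a change of sign also without WT replicate 3 (0.04).

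TGFB1 and the row that the reference table of gene names pairs with IL16 were the steadiest. TGFB1 (ENSSSCG00000003017, chromosome 6 from 45127026 to 45139176) was at 197.0, 175.1 and 180.2 FPKM in WT replicates 1 to 3 and at 209.7, 187.4 and 203.1 FPKM in leptin-overexpressing replicates 1 to 3. Its highest library exceeded its lowest 1.20 times, against 5.42 times for TNF, 3.57 times for IFNG and 3.13 times for IL15. The TGFB1 log2 difference of 0.12 (standard error 0.14) became -0.01 when libraries were scaled to equal FPKM totals. The row ENSSSCG00000001787 (chromosome 7 from 55573941 to 55702252) carries no symbol in the deposited table, so it is no member by the rule, and it was looked up after the values were seen. It was at 98.8, 91.6 and 113.9 FPKM under the WT label and at 116.0, 123.2 and 108.0 FPKM under the leptin-overexpressing label, a log2 difference of 0.19 (standard error 0.15) with 1 WT library above the lowest of the other label.

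**Figure D4:**
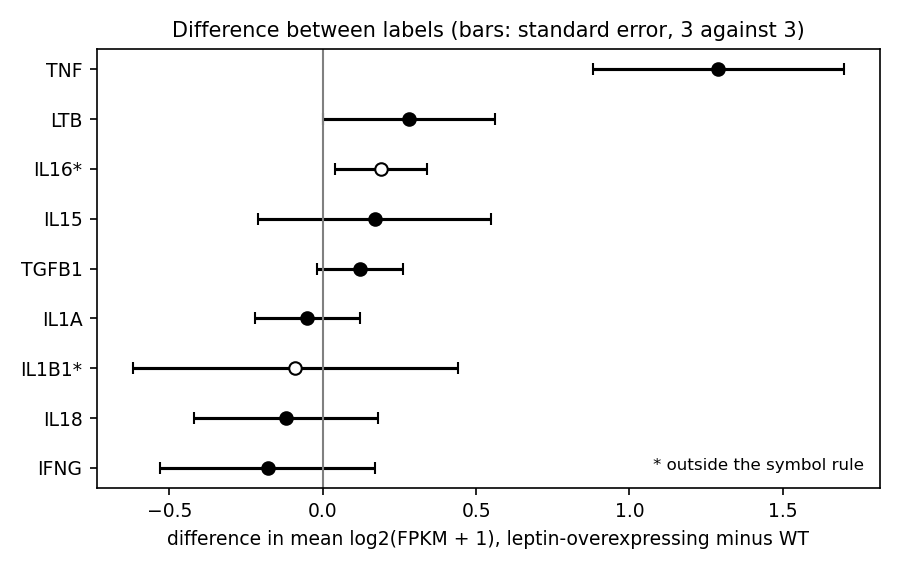
Difference between the labels for each cytokine on the log2(FPKM + 1) scale, leptin-overexpressing minus WT, with bars of 1 standard error over 3 against 3 libraries; open points are rows outside the symbol rule. TNF lies at 1.29, and the other members lie between -0.18 and 0.28.

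Over the 7 members, 4 had a higher and 3 a lower level under the leptin-overexpressing label, with a median log2 difference of 0.119. Among all 10735 genes tested, 63.1% were higher and the median was 0.059. TNF was the 1 member of 7 whose values did not overlap between the labels, as was so for 7.63% of the genes tested. These counts use the contrast known when the list was drawn up, so they are no test of the members, and nothing is read from them. Without both replicate 1 libraries the log2 differences of the remaining members were 0.38 for IL15, 0.13 for TGFB1, -0.04 for IL18 and -0.29 for IFNG, with the signs unchanged, and 0.12 for IL1A, with the sign turned.

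Several members followed an order of the libraries that crossed the labels. IL18, IL1A and IL1B1 were highest in WT replicates 1 and 2 and leptin-overexpressing replicate 2, although IL1A spanned only 4.03 to 5.69 FPKM. In those libraries LTB and IFNG had their 3 lowest values. TNF, IL15 and TGFB1 had neither their 3 highest nor their 3 lowest values there. Of the 15 receptor and antagonist rows tested, 8 had their 3 highest values in the libraries where IL18 had its own, and 7 did not, against 575 of all 10735 genes (5.36%). This was counted after the values were seen. Among the 8, IFNGR1, the ligand-binding chain of the IFNG receptor, was at 76.7, 79.0 and 33.5 FPKM in WT replicates 1 to 3 and at 43.1, 76.7 and 35.5 FPKM in leptin-overexpressing replicates 1 to 3. IL18RAP, the accessory chain of the IL18 receptor, was at 88.1, 88.9 and 44.5 FPKM and at 36.6, 80.8 and 43.4 FPKM in the same order. Sums of cell markers followed that order in part. The neutrophil list (8 of 12 symbols found) summed to 3532, 697 and 416 FPKM in WT replicates 1 to 3 and to 414, 1272 and 644 FPKM in leptin-overexpressing replicates 1 to 3, mostly from S100A8, S100A9 and S100A12, which monocytes also express. Of its 8 rows, 2 had their 3 highest values in the libraries where IL18 was highest, and 6 did not. T cell markers (11 of 12 found) summed to 1262, 944 and 1277 FPKM and to 1424, 853 and 1471 FPKM in the same order, with WT replicates 1 and 3 nearly equal. Of the 11 T cell rows, 5 had their 3 lowest values in the libraries where IL18 was highest, and 6 did not. The sums of monocyte markers (given above), of B cell markers (389, 694 and 682, then 672, 560 and 586 FPKM), of NK and cytotoxic cell markers (730, 346 and 779, then 556, 470 and 733 FPKM) and of platelet markers (592, 262 and 404, then 526, 565 and 207 FPKM) had another order than IL18. Among single rows, 5 of 10 for NK and cytotoxic cells had their 3 lowest values, and 3 of 10 for monocytes their 3 highest, in the libraries where IL18 was highest. Of 6 rows for B cells and 10 for platelets, 0 had their 3 highest and 0 their 3 lowest values there. No share over all genes is given for the 3 lowest values, those of LTB and IFNG included, so nothing is read from those counts. The part of these cell markers in the cytokine values was not tested.

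**Figure D5:**
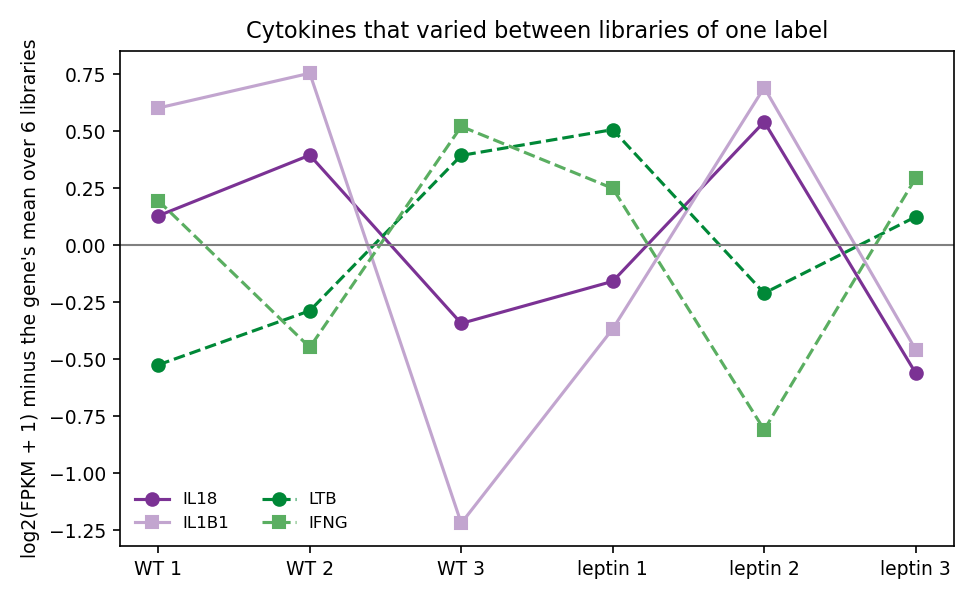
Level of IL18, IL1B1, LTB and IFNG in each library as log2(FPKM + 1) minus the gene's mean over the 6 libraries. IL18 and IL1B1 are high in WT 1, WT 2 and leptin 2, where LTB and IFNG have their 3 lowest values, so both labels hold high and low libraries.

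The gene lists described from here on were drawn up with earlier results of these data known. Their counts and p-values are therefore a description. Receptors and antagonists of the cytokines numbered 15 rows tested (14 of 22 symbols found), with 5 higher and 10 lower under the leptin-overexpressing label and a median log2 difference of -0.0931. None had an adjusted p under 0.05 (0 rows, limma), against 0.00932% of all genes tested, and none had an unadjusted p under 0.05 (0 rows), against 3.18%. The 2 largest differences were those of 2 rows named IL1R2, the decoy receptor that binds IL1 without signalling. The row ENSSSCG00000008163 was at 23.2, 26.6 and 1.63 FPKM under the WT label and at 2.51, 3.82 and 2.89 FPKM under the leptin-overexpressing label, a log2 difference of -1.58 (standard error 0.79, adjusted p = 0.993, limma). WT replicates 1 and 2 were high and the remaining 4 libraries low, so the labels overlapped through WT replicate 3. The second row, ENSSSCG00000028331, had the same pattern, with a log2 difference of -1.53 (standard error 0.80, adjusted p = 0.993, limma). Over 16 alternatives the difference of this second row ran from -2.60 to -0.94, and 0 of them gave it an adjusted p under 0.05 (limma). Without WT replicate 3 the first of these rows passed the adjusted p, with a log2 difference of -2.68 (adjusted p = 0.00615, limma). This was 1 of 16 alternatives, over which its adjusted p ran from 0.00615 to 1 and its difference from -2.68 to -0.98. TNFRSF1A, the main signalling receptor of TNF, had a log2 difference of -0.02, and LTBR, the receptor of membrane lymphotoxin, one of 0.31.

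Among genes for the maturation and release of these cytokines, 8 of 11 rows tested were higher and 3 lower, with a median of 0.151. Neither test called any (0 rows at the adjusted p and 0 at the unadjusted p, limma), where the shares over all genes tested were 0.00932% and 3.18%. GSDMD, which forms the pore through which IL1 family members leave the cell, was at 21.9, 22.6 and 29.8 FPKM under the WT label and at 34.9, 36.9 and 26.8 FPKM under the leptin-overexpressing label (log2 difference 0.40, adjusted p = 0.993, limma). CASP1, the protease that activates IL18 and IL1B, had a log2 difference of 0.31 with the labels overlapping. ADAM17, the sheddase that frees TNF from the membrane, had 2 rows, at 0.15 and 0.07.

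Factors that control the decay of cytokine mRNA had 7 rows tested, 3 higher and 4 lower, with a median of -0.00851. At the unadjusted p, 1 was higher and 1 lower, against 3.18% of all genes tested in either direction, and 0 had an adjusted p under 0.05 (limma). The same 2 of 7 did not overlap between the labels, against 7.63% of all genes. This list too was chosen with earlier results known, so these counts are no test of it. ZFP36 (tristetraprolin), which binds AU-rich elements of TNF mRNA and promotes its decay, was at 133.2, 165.4 and 118.3 FPKM under the WT label and at 170.0, 205.4 and 231.7 FPKM under the leptin-overexpressing label, with no overlap. Its log2 difference was 0.54 (standard error 0.19, unadjusted p = 0.0197, adjusted p = 0.993, limma). The ZFP36 difference lost its unadjusted p under 0.05 in 4 of 16 alternatives, both scalings among them, while its size stayed between 0.41 and 0.67. RC3H1 (roquin 1), another factor that represses cytokine mRNAs, was at 9.61, 9.57 and 10.4 FPKM under the WT label and at 6.61, 5.22 and 7.48 FPKM under the leptin-overexpressing label, again with no overlap. Its log2 difference was -0.56 (standard error 0.16, unadjusted p = 0.00836, adjusted p = 0.993, limma), it was negative in all 16 alternatives, from -0.67 to -0.38, and its adjusted p ran from 0.614 to 1 over them.

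Genes that TNF and NF-kB are known to induce had 18 rows tested, 9 higher and 9 lower, with a median of -0.0277. With limma, 3 of them were higher at the unadjusted p and 0 lower, against 1.98% and 1.19% of all genes tested, and 0 had an adjusted p under 0.05. The list was drawn up with earlier results of these data known, so these counts are no test of it. IER3, an early response gene, was at 8.14, 3.22 and 6.74 FPKM under the WT label and at 13.3, 23.7 and 9.56 FPKM under the leptin-overexpressing label, with no overlap. Its log2 difference was 1.22 (standard error 0.37, unadjusted p = 0.0113, adjusted p = 0.993, limma). NFKBIA, the inhibitor that NF-kB induces to end its own signal, averaged 93.2 ± 21.1 FPKM (SD, n = 3) against 156.3 ± 50.6 FPKM (SD, n = 3), a log2 difference of 0.72 with WT replicate 1 above leptin-overexpressing replicate 3. PLAU, the urokinase gene, had a log2 difference of 0.52 and no overlap. IER3 and PLAU were the 2 of 18 rows whose values did not overlap between the labels, against 7.63% of all genes tested. The unadjusted p was not under 0.05 in 1 of 16 alternatives for IER3, 4 for NFKBIA and 5 for PLAU, and for all 3 without moderated variances. The NFKBIA difference was 0.47 without leptin-overexpressing replicate 2, and that of PLAU was 0.34 without leptin-overexpressing replicate 3 and 0.48 without both replicate 1 libraries. In contrast to these 3, TNFAIP3, an NF-kB feedback inhibitor, had a log2 difference of 0.11, and SOD2, a mitochondrial enzyme that TNF induces, one of -0.45 with the labels overlapping.

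Other ligands of the TNF superfamily numbered 10 rows tested, 7 higher and 3 lower, with a median of 0.144, and other interleukins and leukocyte growth factors also numbered 10, 7 higher and 3 lower, with a median of 0.156. In both lists 0 rows had an adjusted and 0 an unadjusted p under 0.05 (limma), against 0.00932% and 3.18% of all genes tested. FASLG, the death ligand of cytotoxic cells, had the largest difference of the first list, at -0.37, followed by CD70 at 0.31. CSF1, the growth factor of monocytes, led the second at 0.47, followed by OSM, an IL6 family member, at 0.34. The labels overlapped for all 4. They did not overlap for 1 of the 10 rows of the first list, against 7.63% of all genes tested. This was TNFSF8, the ligand of CD30, at 7.99, 9.10 and 8.97 FPKM under the WT label and 9.20, 10.01 and 9.39 FPKM under the other, a log2 difference of 0.12.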

How the data were processed

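PBMC RNA of 6 pigs was measured by RNA-seq, 3 libraries per label. Per the labels, libraries were strand-specific (TruSeq). The authors deposited FPKM values, 1 per gene and library. The study's methods name 101 bp paired reads, Bowtie, the Ensembl version 75 transcriptome and RSEM, while the submitters' processing notes name FastQC, STAR 2.5, Cuffnorm and DESeq 1.22.1 without roles; which made the table was not settled. The authors' deposited log2 fold changes and their p-values and FDR were not used. Columns were matched to samples by animal code, and 0 were left unmatched.

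Members were matched by symbol, and they and the gene lists were chosen with earlier results of these data known. Of 4000 rows without a symbol, 1504 were named by the reference table, which was used only to look up absent members. Limma 3.58.1 (R 4.3.3, lmFit and eBayes) was fitted on log2(FPKM + 1), genotype label only, after genes reaching 1 FPKM in fewer than 3 libraries were dropped, which left 10735, two-sided, Benjamini-Hochberg over all genes; the fit was tested on simulated data. Named were all members, list genes with an unadjusted p under 0.05 (otherwise the 2 with the largest difference) and the 5 genes most like TNF; other list genes were picked after their values were seen. TNFRSF1A, LTBR, ADAM17, TNFAIP3, SOD2, IFNGR1, IL18RAP, LTA and TNFSF8 are of this kind. FPKM hold no read counts, so the depth is unknown and precision rests on 3 libraries per label.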

Additional observations from a re-analysis of the deposited data

How the results depend on the processing

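TNF was higher in the libraries labelled leptin-overexpressing in all 16 alternatives, from 0.81 to 1.77 on the log2 scale. Both extremes came from leaving out 1 replicate. Nothing is read from the count of members at the unadjusted p (limma), because the members were chosen on this contrast. It was 1 of 7, against 3.18% of all genes tested, and went to 0 when variances were not moderated across genes. It was also 0 with both replicate 1 libraries left out. The other 6 members changed sign in 1 to 3 alternatives each. Scaling moved the median log2 difference of all genes from 0.059 to 0.00234 by median of ratios and to -0.0528 with equal FPKM totals. Replicate numbers belong to different animals, and same-numbered libraries did not deviate together (r = -0.284, 0.135 and -0.00728 across genes for replicates 1, 2 and 3). With the replicate block TNF was at 1.29, and list genes past the unadjusted p numbered 9 in place of 5. The 5 of the reported fit came from lists of 15, 11, 7, 10, 10 and 18 rows tested. These lists were also chosen with earlier results of these data known, so nothing is read from their count. Of all genes tested, 3.18% passed the unadjusted p in that fit (limma).

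That count of list genes was 3 with either scaling, 2 without moderated variances, and 4 to 11 with one replicate left out, the 11 without WT replicate 3 and 8 without leptin-overexpressing replicate 3. At the adjusted p it ranged from 0 to 1. The median of other interleukins was 0.204 with a pseudocount of 0.1, 0.0846 with 5, 0.108 with median of ratios, 0.0611 with equal totals, 0.0688 without both replicate 1 libraries and 0.0957 to 0.213 with one replicate left out. With equal totals, the medians were 0.0224 for maturation and release, -0.134 for mRNA decay, 0.0350 for TNF superfamily ligands and -0.152 for TNF response genes. That of receptors and antagonists was -0.197 in the same setting. Without both replicate 1 libraries, TNF superfamily ligands were at -0.0029 and TNF response genes at 0.10. With one replicate left out, TNF superfamily ligands ranged from 0.0232 to 0.258, mRNA decay factors from -0.0788 to 0.120 and TNF response genes from -0.0412 to 0.0649. Receptors and antagonists then ranged from -0.189 to -0.0316, and genes for maturation and release from 0.081 to 0.211. The cause was not tested.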

Other observations

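By Pearson's r on log2(FPKM + 1) over the 6 libraries, the genes with a symbol whose levels were most like TNF were TOMM20 (r = 0.990), MFSD10 (0.986), MID1IP1 (0.984), PAK1IP1 (0.976) and PARP10 (0.976). TOMM20 encodes a subunit of the mitochondrial import receptor. These values are a description over 6 libraries, and 44 of 10734 genes (0.41%) had an r above 0.95. The 5 genes were picked for their r with TNF, so sharing its library order and its separation of the labels follows largely from that choice. Labels did not overlap for 7.63% of all genes tested. In each of the 5 genes WT replicate 2 was the lowest library, followed by WT replicates 1 and 3, and the libraries labelled leptin-overexpressing were above all of those labelled WT. These 5 genes spanned less than TNF did. TOMM20 was at 12.6 to 15.9 FPKM in the libraries labelled WT and at 16.2 to 16.9 FPKM in those labelled leptin-overexpressing, a log2 difference of 0.19. MID1IP1 was at 32.9 to 49.9 and at 56.6 to 59.0 FPKM, a log2 difference of 0.46.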
